A study of Mus musculus with 13 samples.

Results

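Fibroblasts from the tail tip (TTF) and from embryos (MEF) were compared, the 2 cell populations from which the study made induced embryonic Sertoli-like cells. All genes with a symbol were included whose array feature lay above the array median on at least 2 of the 4 TTF and MEF arrays, which gave 14357 genes of the 20738 genes named on the array, measured by 21777 of 62976 features. Total RNA was hybridised to 1-colour Agilent arrays with Cy3 label, and the deposited values are log2 signals. Each fibroblast population was measured on 2 arrays, both were labelled wild type, and both had been grown for 3 passages in DME medium with 10% serum. The TTF carried a tdTomato transgene and the MEF an Empty vector, so the construct and the origin of the cells cannot be told apart. The labels give no strain, sex, age or number of donors for either population, and do not say whether the arrays of a group came from separate cultures, so every p-value rests on array-to-array scatter alone, which could be purely technical. The induced cells used at the end carried Nr5a1, Wt1, Dmrt1, Gata4 and Sox9 under doxycycline and had been cultured for 6 months in 2% serum. They were measured on 2 arrays when made from TTF (TTF-ieSC) and on 1 array when made from MEF (MEF-ieSC). The design text speaks of duplicates for every group, and no second MEF-ieSC array was analysed here.

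Fibroblasts are the mesenchymal cells that lay down and remodel the extracellular matrix of connective tissue. They keep a record of their place on the body axes in the Hox genes, homeobox transcription factors arranged in 4 chromosomal clusters in which the genes at one end act in anterior and those at the other in posterior and distal structures. A culture made from whole embryos mixes mesenchyme of several regions and stages, with active fetal growth genes, while a tail-tip culture comes from the skin, tendon, cartilage and bone of one posterior place.

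The arrays of a group were close to each other. The root mean square difference over the 14357 genes was 0.158 on the log2 scale between the TTF arrays and 0.174 between the MEF arrays, against 1.04 to 1.05 for each pair of a TTF and a MEF array. Every array had a median of 7.488 and a 75th percentile of 10.473, because the deposited table had already been brought to 1 distribution. Values under the median are called dim here. They carry no detection flag, and a difference against a dim group would change with the unknown background level, so log2 differences are given and folds added only where both groups were bright. As bulk RNA was measured, fewer cells of a type and less RNA per cell cannot be told apart.

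A gene was called when limma's test gave an adjusted p under 0.05 and the log2 difference of the group means, TTF minus MEF, was at least 1 in size. By this rule 1492 genes (10.4%) were higher and 1457 (10.1%) lower in TTF, 20.5% in all. The test alone passed 4888 genes (34%) as higher and 5627 (39.2%) as lower, 73.2% in all, and the 4 arrays separated the groups without overlap for 12384 genes (86.3%). The median difference over all genes was -0.04, and 55.8% of genes differed by less than 0.5. A difference of 2 or more was reached by 468 genes higher and 444 lower in TTF, of 4 or more by 77 and 50, and of 6 or more by 13 and 6. Of the 14357 genes, 13096 lay above the median on all 4 arrays, 462 on both TTF and no MEF array, and 466 on both MEF and no TTF array.

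**Figure D1:**
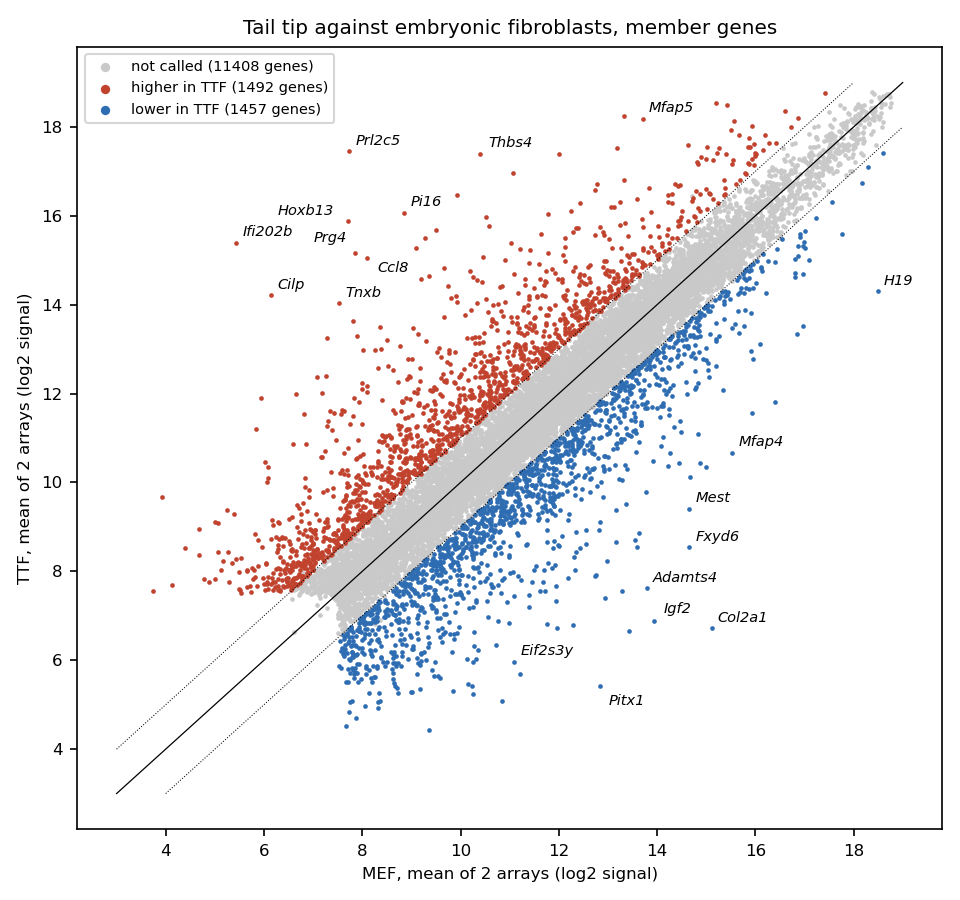
Mean log2 signal of the 14357 genes in MEF (x axis) and TTF (y axis), each over 2 arrays. Red points are the 1492 genes called higher in TTF, blue points the 1457 called lower and grey points the others; the solid line marks equal signal and the dotted lines a log2 difference of 1.

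Ifi202b and Prl2c5 had the largest differences in favour of TTF among the genes named by the rule for large differences. Ifi202b, an interferon-inducible gene of the cluster of DNA-binding p200 proteins, read 15.33 and 15.46 on the TTF arrays and 5.18 and 5.69 on the MEF arrays. Both MEF values were dim, and the difference was 9.96 ± 0.20 (SE, adjusted p = 1.51e-10). Prl2c5, a proliferin of the prolactin family, read 17.47 and 17.44 in TTF and 7.80 and 7.68 in MEF, a difference of 9.72 ± 0.09 (adjusted p = 5.24e-12). Both genes have near-identical relatives, so the signal may include those copies.
Hoxb13, the most posterior gene of its cluster and a gene of the tail bud, read 15.90 and 15.86 in TTF and 7.72 and 7.73 in MEF. The MEF values lay close to the array median, and the difference was 8.16 ± 0.19 (adjusted p = 4.58e-10). Among secreted proteins, Cilp of the cartilage intermediate layer differed by 8.07, Prg4 (lubricin, which lubricates joint surfaces) by 7.31, Thbs4, a thrombospondin of tendon and muscle matrix, by 7.01 and the tenascin Tnxb by 6.51. Prg4 had the largest standard error of these, 0.55. Pi16, known as a marker of universal fibroblasts in mouse, read 16.17 and 15.98 against 8.90 and 8.81, a difference of 7.22 ± 0.07 (adjusted p = 5.24e-12). The chemokine Ccl8 differed by 6.97, the globin Cygb by 6.55, the peptide hormone gene Cck by 6.22, and the purine enzymes Gda and Xdh each by 6.19.

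By the same rule, Col2a1, Pitx1 and Igf2 had the largest differences in favour of MEF. Col2a1, the main fibrillar collagen of cartilage, read 6.49 and 6.97 in TTF and 15.04 and 15.17 in MEF. Both TTF values were dim, and the difference was -8.38 ± 0.14 (adjusted p = 5.37e-11). Pitx1, a homeobox factor that specifies the hindlimb, read 5.48 and 5.36 in TTF and 12.94 and 12.74 in MEF, a difference of -7.42 ± 0.11 (adjusted p = 3.62e-11). Igf2, the imprinted fetal insulin-like growth factor, read 6.84 and 6.93 in TTF and 14.18 and 13.67 in MEF, a difference of -7.05 ± 0.16 (adjusted p = 3.32e-10). For each of these 3 genes, chosen for the size of the difference, both TTF arrays were dim. Igf2os, which overlaps Igf2, differed by -5.74, and the array need not separate the 2 transcripts.
The receptor phosphatase Ptprz1 differed by -6.77, the sodium pump regulator Fxyd6 by -6.10, the potassium channel Kcnk1 by -5.75, the embryonic laminin chain Lama1 by -5.52, cardiac troponin Tnnt2 by -5.51 and the tenascin Tnn by -5.24. Adamts4, an aggrecan-cleaving protease, differed by -6.17 on its brightest feature, but its features ranged from -6.17 to 0.30. Features of Pgm5 disagreed in size as well, between -5.06 and -1.78. In the 20 largest differences in each direction, the dimmer group was under the median for 4 genes higher and 11 genes lower in TTF, and arrays of a group differed by at most 0.98.

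**Figure D2:**
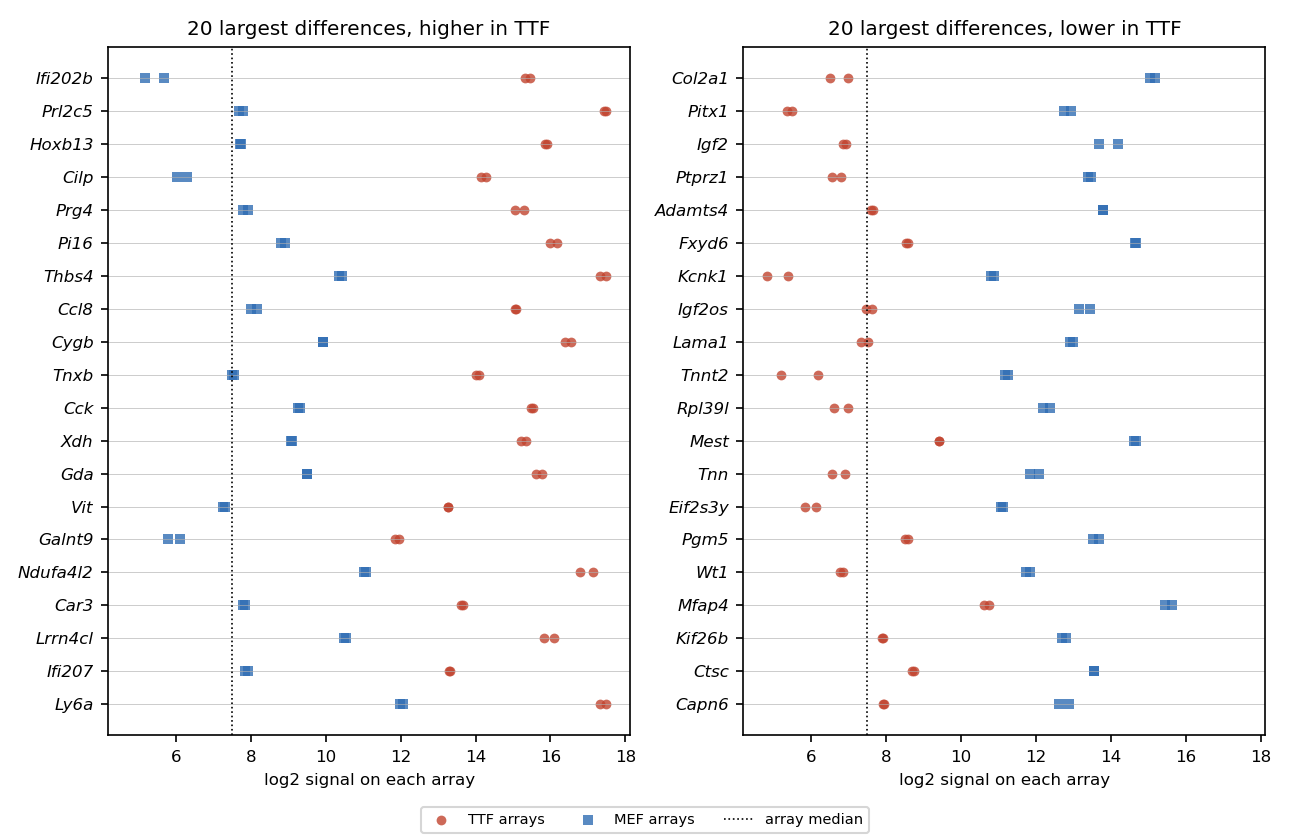
Log2 signal on each of the 4 arrays (x axis) for the 20 largest differences in each direction (y axis, genes). Red circles are TTF arrays, blue squares MEF arrays and the dotted line the array median of 7.488; in every one of these 40 genes the groups are separate.

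Of 24 genes of a fibroblast identity list, 23 lay above the array median on each TTF array and 24 on each MEF array, Tcf21 being dim in TTF. All 24 were members, with 6 called higher, 5 called lower and a median difference of 0.25. Counts of this and the later lists are to be read beside the shares over all 14357 genes. These were 10.4% higher and 10.1% lower by the rule, and 34% and 39.2% by the test alone. Thy1, a surface glycoprotein of fibroblasts, read 17.79 and 17.89 in TTF and 17.50 and 17.51 in MEF (adjusted p = 0.0798). Col1a1, the main chain of type I collagen, read 17.34 and 17.31 against 17.39 and 17.37, a difference of -0.06 ± 0.06 (adjusted p = 0.371), and fibronectin (Fn1) differed by -0.07 ± 0.10 (adjusted p = 0.552). Single genes of the list differed strongly, and in opposite directions. Mfap5, a microfibril protein, read 18.21 and 18.17 in TTF and 13.76 and 13.66 in MEF, a difference of 4.48 ± 0.09 (22.3-fold, adjusted p = 1.82e-10). Its relative Mfap4 went the other way and read 10.74 and 10.60 in TTF against 15.45 and 15.62 in MEF, a difference of -4.86 ± 0.10 (29.1-fold lower, adjusted p = 1.63e-10). The stem and progenitor surface protein Cd34 was higher by 3.85, the calcium-binding protein S100a4 by 3.07, the growth factor receptor Pdgfra by 1.60 and the proteoglycan decorin (Dcn) by 1.42. Called lower were the transcription factor Tcf21, which differed by -1.46, lumican (Lum) by -1.37, periostin (Postn) by -1.18 and the serine protease Fap by -1.06.

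Genes that mark subtypes of adult skin fibroblasts were mostly higher in TTF. Of the 25 members of this list, 14 were called higher and 3 lower, with a median difference of 1.22. Besides Pi16, Cd34 and Mfap5, the Ly6 surface proteins led it: Ly6a (Sca-1) was higher by 5.39 and Ly6c1 by 4.92, although these paralogs are alike enough to share signal. The semaphorin Sema3c was higher by 3.02 and the netrin Ntn1 by 2.32. Called lower were Mest, which differed by -5.24, Ptn and Crabp1. Ptn read 14.49 and 14.47 in TTF and 16.10 and 15.93 in MEF. Crabp1 read 14.29 and 14.24 in TTF and 15.49 and 15.35 in MEF.
Fat genes followed with 10 of 22 members called higher and 1 lower, with a median of 0.92. Lpl, the lipoprotein lipase, read 15.11 and 15.37 in TTF against 11.28 and 11.53 in MEF, a difference of 3.83 ± 0.11 (14.3-fold, adjusted p = 1.21e-09). Car3, an abundant carbonic anhydrase of fat cells, was higher by 5.83, the lipid droplet protein Plin4 by 2.49, the fatty acid carrier Fabp4 by 2.40 and the adipogenic factor Cebpd by 2.28. The gene called lower was Fabp5, another fatty acid carrier, at 14.66 and 14.73 in TTF and 17.01 and 16.95 in MEF. By the test alone 13 were higher and 6 lower. Without the second TTF array, 2 fat genes were called lower. The hormones Adipoq and Lep, which mark mature fat cells, did not pass the filter.

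Cartilage and tendon genes split between the groups. Of 16 cartilage members 3 were called higher and 5 lower, with a median of 0.01. The 3 higher were Cilp, Prg4 and Comp, a pentameric matrix protein of cartilage and tendon, which read 14.76 and 14.89 against 9.67 and 9.65 (5.17 ± 0.11, 35.9-fold, adjusted p = 1.69e-10). The lower genes included Col2a1 and Col11a1, a collagen of the same fibrils, which differed by -4.49. Of 15 tendon and joint members 5 were higher and 3 lower: Thbs4 and Prg4 rose, while Scx, the transcription factor of tendon progenitors, read 10.66 and 10.67 in TTF and 14.21 and 14.32 in MEF (-3.60 ± 0.06, 12.1-fold lower, adjusted p = 9.21e-11).
Of 11 bone members 1 was higher and 2 were lower, beside 10.4% and 10.1% over all genes. Among the lower ones was osteoprotegerin (Tnfrsf11b), a decoy receptor that restrains osteoclasts, at -3.43.

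Collagens fell more often than they rose, with 1 of 25 members called higher and 7 lower and a median of -0.56. Col7a1, which anchors the epidermis to the dermis, differed by -3.18, Col8a2 by -2.84 and the fibril-associated Col12a1 by -2.69, and Col14a1 was the member called higher, by 1.44. Basement membrane genes had 1 of 18 higher and 6 lower (median -0.13), with Lama1, Frem1 (-3.74) and Fras1 (-3.26), proteins of the embryonic skin basement membrane, falling most. Matrix proteases and their inhibitors moved the other way, with 13 of 27 higher and 3 lower and a median of 0.98. Adamts15, an aggrecanase, read 12.24 and 12.32 in TTF and 9.58 and 9.74 in MEF (2.62 ± 0.09, 6.16-fold, adjusted p = 5.07e-09). Stromelysin (Mmp3) differed by 3.25 and the related aggrecanase Adamts5 by 2.66.

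Positional genes separated the cultures by Hox cluster. Of 20 anterior and central Hox members (numbers 1 to 8 in their clusters), 0 were called higher and 14 lower, with a median of -1.66. By the test alone 0 were higher and 16 lower. Hoxc6, a gene of the thoracic region, read 10.78 and 10.84 in TTF and 14.15 and 14.04 in MEF (-3.28 ± 0.08, 9.70-fold lower, adjusted p = 4.87e-10), and Hoxd8, Hoxd4, Hoxc5 and Hoxd3 differed by -3.27, -3.20, -2.92 and -2.75.
The 16 posterior members (numbers 9 to 13) went both ways, with 5 called higher, 6 lower and a median of 0.26. Hoxc13, known for hair and nail formation, read 11.46 and 11.61 in TTF and 7.54 and 7.57 in MEF (3.98 ± 0.29, adjusted p = 9.77e-07). Hoxa13, Hoxc11 and Hoxc12, named after their values were seen, were higher by 1.56, 2.13 and 2.38. In the D cluster all 5 posterior genes were lower, from Hoxd9 at -2.16 to Hoxd12 at -4.80. Hoxd13, a gene of the digits, read 7.53 and 7.39 in TTF and 11.37 and 11.42 in MEF (-3.94 ± 0.08, adjusted p = 1.32e-10). The number 13 genes of the A, B and C clusters were thus higher in TTF and that of the D cluster lower. The remaining gene called lower was Hoxc9, at -2.02.

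**Figure D3:**
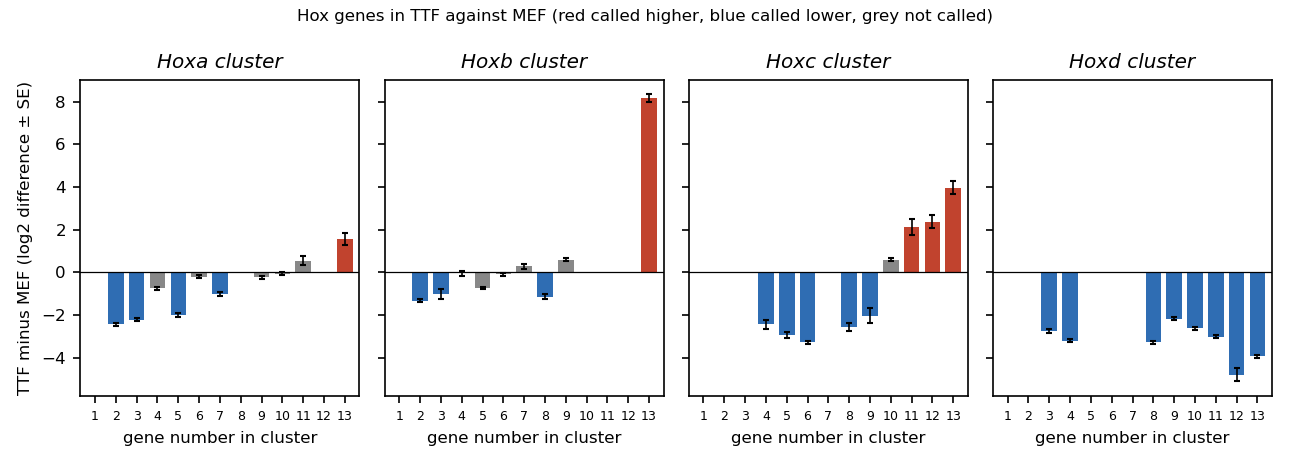
Log2 difference, TTF minus MEF, with its standard error (y axis) for each Hox member by its number in the cluster (x axis), 1 panel per cluster. Red bars are called higher, blue bars called lower and grey bars not called; numbers without a bar had no member or do not exist in that cluster. Genes 1 to 8 hold no red bar, and gene 13 is red in 3 clusters and blue in the D cluster.

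Limb patterning factors outside the Hox genes were lower or not called. Of 26 members 0 were called higher and 12 lower, with a median of -0.82; by the test alone 2 were higher and 15 lower. After Pitx1 came Alx1, a homeobox factor of limb and face mesenchyme, at -5.02 ± 0.49, and Hand2, which sets the posterior side of the limb bud, at -3.88 ± 0.20. The LIM factors Lhx9 and Lhx2 differed by -3.28 and -2.37. Alx1, Hand2 and Lhx9 were dim on both TTF arrays.
Craniofacial and neural crest factors had 10 of 21 members lower and 4 higher, with a median of -0.37. Eya2, a cofactor of homeobox proteins, read 7.48 and 7.86 in TTF and 11.86 and 12.01 in MEF (-4.26 ± 0.17, adjusted p = 1.23e-08). Foxd1, a factor of stromal progenitors, differed by -4.15, Zic2 by -3.90 and Six2 by -3.44. A further homeobox list (Iroquois, Nkx and other genes) had 2 of 19 higher and 3 lower, beside 10.4% and 10.1% over all genes. Leaving out the first TTF array, the second TTF array or the second MEF array left 1 higher.

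Fetal growth genes, many of them imprinted, were largely lower in TTF. Of 23 members 13 were called lower and 1 higher, with a median of -1.44, and 2 were higher without the first MEF array. H19, the imprinted non-coding RNA beside Igf2, read 14.25 and 14.36 in TTF and 18.50 and 18.48 in MEF (-4.18 ± 0.09, 18.2-fold lower, adjusted p = 2.10e-10). Mest, an imprinted gene expressed from the paternal copy, read 9.41 on both TTF arrays and 14.68 and 14.62 in MEF (-5.24 ± 0.06, 37.7-fold lower, adjusted p = 1.07e-11), and its features spanned -5.36 to -2.92. The cell cycle inhibitor Cdkn1c differed by -4.01 and the glypican Gpc3, which restrains growth, by -3.90. The exception was Sfrp2, a Wnt antagonist, higher by 1.72.
In the IGF system 3 of 17 members were higher and 8 lower. The binding protein Igfbp4 was higher by 2.97 and Igfbp6 by 1.64, whereas Igfbp2 differed by -3.75 and the protease Pappa, which releases IGF from its binding proteins, by -2.42.

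Among signalling ligands, the BMP and TGF-beta family had 8 of 39 members higher and 5 lower, with a median of 0.19. Bmp4, a ligand of limb and skin patterning, read 10.38 and 10.49 in TTF and 14.96 and 14.79 in MEF (-4.44 ± 0.08, 21.7-fold lower, adjusted p = 1.23e-10), and Tgfb2 differed by -3.86. The co-receptor Tgfbr3 was higher by 3.39, the ligand Gdf10 by 3.32 and the inhibin chain Inhbb by 2.22.
Of 35 Wnt pathway members 4 were higher and 9 lower. The antagonist Dkk2 was higher by 2.46, and Rspo1, which strengthens Wnt signals, differed by -3.03, with the target Nkd1 at -2.74 and the ligand Wnt5a at -1.65. FGF genes had 4 of 19 higher and 5 lower, with the ligands Fgf7 at 2.91, Fgf5 at 2.59 and Fgf2 at 2.57 above MEF. Notch genes had 0 of 13 called higher and 4 lower (Heyl -3.07, Jag1 -1.86, Hey1 -1.81, Notch3 -1.36), and 1 was called higher without the first TTF array. By the test alone 7 were higher and 5 lower, beside 34% and 39.2% over all genes. Of 12 Hedgehog members 1 was higher and 2 were lower, beside 10.4% and 10.1% over all genes. The lower ones were the factors Gli2 (-1.88) and Gli1 (-1.71). The only one called higher was the ligand Dhh at 1.02, a count that fell to 0 without the first MEF or the first TTF array.

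Genes of the interferon response were higher in TTF as a group. Interferons act through STAT and IRF factors that bind the interferon-stimulated response element of antiviral genes. Of 37 members 26 were called higher and 0 lower, with a median of 1.45. By the test alone 33 were higher and 0 lower. Oas2, an enzyme that senses double-stranded RNA, read 12.15 and 12.21 in TTF and 8.06 and 8.14 in MEF (4.08 ± 0.15, adjusted p = 6.81e-09). Ifi203 and Ifi204, of the same cluster as Ifi202b, were higher by 3.90 and 3.38, and the nucleic acid sensor Zbp1 by 3.43. Oas1a and Ifit3, chosen after their values were seen because of their promoters, differed by 3.27 and 2.87.
The interferon-stimulated response element, searched as GAAA, any 2 bases and GAAA again on both strands, lay in 943 of 27025 promoters (3.49%), each promoter being the 250 bases before and 50 after the start of a gene. It lay in 16 of the 27 promoters matched to genes of the interferon list, whether or not they passed the filter (59.3%). The share was 5.77% for genes called higher, 2.98% for genes called lower and 3.01% over all member genes. Matches are a description of the letters and not of binding. The promoters of Oas1a (chr5:120907476-120907775, minus strand) and Ifit3 (chr19:34583279-34583578, plus strand), from RefSeq on GRCm38.p6, show the motif in capitals; the matches of Oas1a overlap each other, and those of Ifit3 are on the opposite strand:
Oas1a: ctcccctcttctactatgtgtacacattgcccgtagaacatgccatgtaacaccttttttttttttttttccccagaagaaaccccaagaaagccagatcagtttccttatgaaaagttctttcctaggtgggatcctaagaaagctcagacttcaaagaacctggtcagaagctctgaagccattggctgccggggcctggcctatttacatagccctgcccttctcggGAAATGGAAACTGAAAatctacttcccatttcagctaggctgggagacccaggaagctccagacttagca
Ifit3: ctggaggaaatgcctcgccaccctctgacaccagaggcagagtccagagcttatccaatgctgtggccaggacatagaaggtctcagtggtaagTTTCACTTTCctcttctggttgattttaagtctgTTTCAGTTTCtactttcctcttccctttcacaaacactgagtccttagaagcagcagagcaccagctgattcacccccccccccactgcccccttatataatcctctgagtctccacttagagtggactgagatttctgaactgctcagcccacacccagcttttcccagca

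Other genes of defence rose beside them. MHC and antigen presentation genes had 13 of 21 members higher and 1 lower (median 1.02). H2-Ab1, a class II chain, read 14.06 on both TTF arrays and 9.92 and 9.95 in MEF (4.13 ± 0.08, 17.5-fold, adjusted p = 1.02e-10). Other class II genes did not move as one: H2-Eb1 was higher by 1.02, Cd74, the invariant chain, was the member called lower, at 6.88 and 7.24 in TTF and 8.73 and 8.75 in MEF, and H2-Aa and the class II regulator Ciita did not pass the filter. The immunoproteasome subunit Psmb9 was higher by 2.61 and the peptide transporter Tap2 by 2.21. H2-T23 and H2-Q6, higher by 2.26 and 2.22, belong to families of near-identical class I genes and are uncertain.
Complement genes had 9 of 14 higher and 1 lower (median 2.30). Cfb, factor B of the alternative pathway, read 12.38 and 12.42 in TTF and 7.19 and 7.34 in MEF (5.13 ± 0.08, adjusted p = 4.53e-11), and C4b, the inhibitor Cd55, C2 and C1ra were higher by 4.45, 4.09, 3.33 and 3.13. Chemokines and cytokines had 12 of 25 higher and 2 lower (1 lower without the second MEF array). After Ccl8 the higher ones were led by the monocyte attractants Ccl2 (2.40) and Ccl7 (2.34), the eosinophil attractant Ccl11 (2.31) and the neutrophil attractant Cxcl5 (2.16). Called lower were Cx3cl1, at 11.98 and 11.83 in TTF and 13.37 and 13.38 in MEF, and Ccl5. Ccl5 read 9.47 on both TTF arrays and 10.41 and 10.65 in MEF. Cxcl10, which was not called, read 9.73 and 9.81 in TTF and 10.46 and 10.66 in MEF. Toll-like receptor and NF-kB genes had 7 of 24 higher and 0 lower (17 and 0 by the test alone), with the lipopolysaccharide receptor Tlr4 at 1.76 and its partner Ly96 at 1.22.
Markers of macrophages and other leukocytes moved in the opposite direction, with 1 of 15 members higher and 6 lower and a median of -0.53. Their summed signal was 14.38 and 14.44 on the log2 scale in TTF against 14.61 and 14.81 in MEF. Of the 17 on the array, 9 and 10 were above the median on the TTF arrays and 15 on each MEF array. The brightest of them, Itgam, read 13.68 and 13.62 in TTF and 14.25 and 13.96 in MEF, and weighs most in the sum. C1qc (-3.81) and Tyrobp (-3.03) were dim on both TTF arrays, and Ptprc, the pan-leukocyte gene, did not pass the filter. The member called higher was the macrophage receptor Csf1r, at 12.00 and 11.85 in TTF and 10.81 and 10.80 in MEF. The part of leukocytes in the defence genes was not tested.

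**Figure D4:**
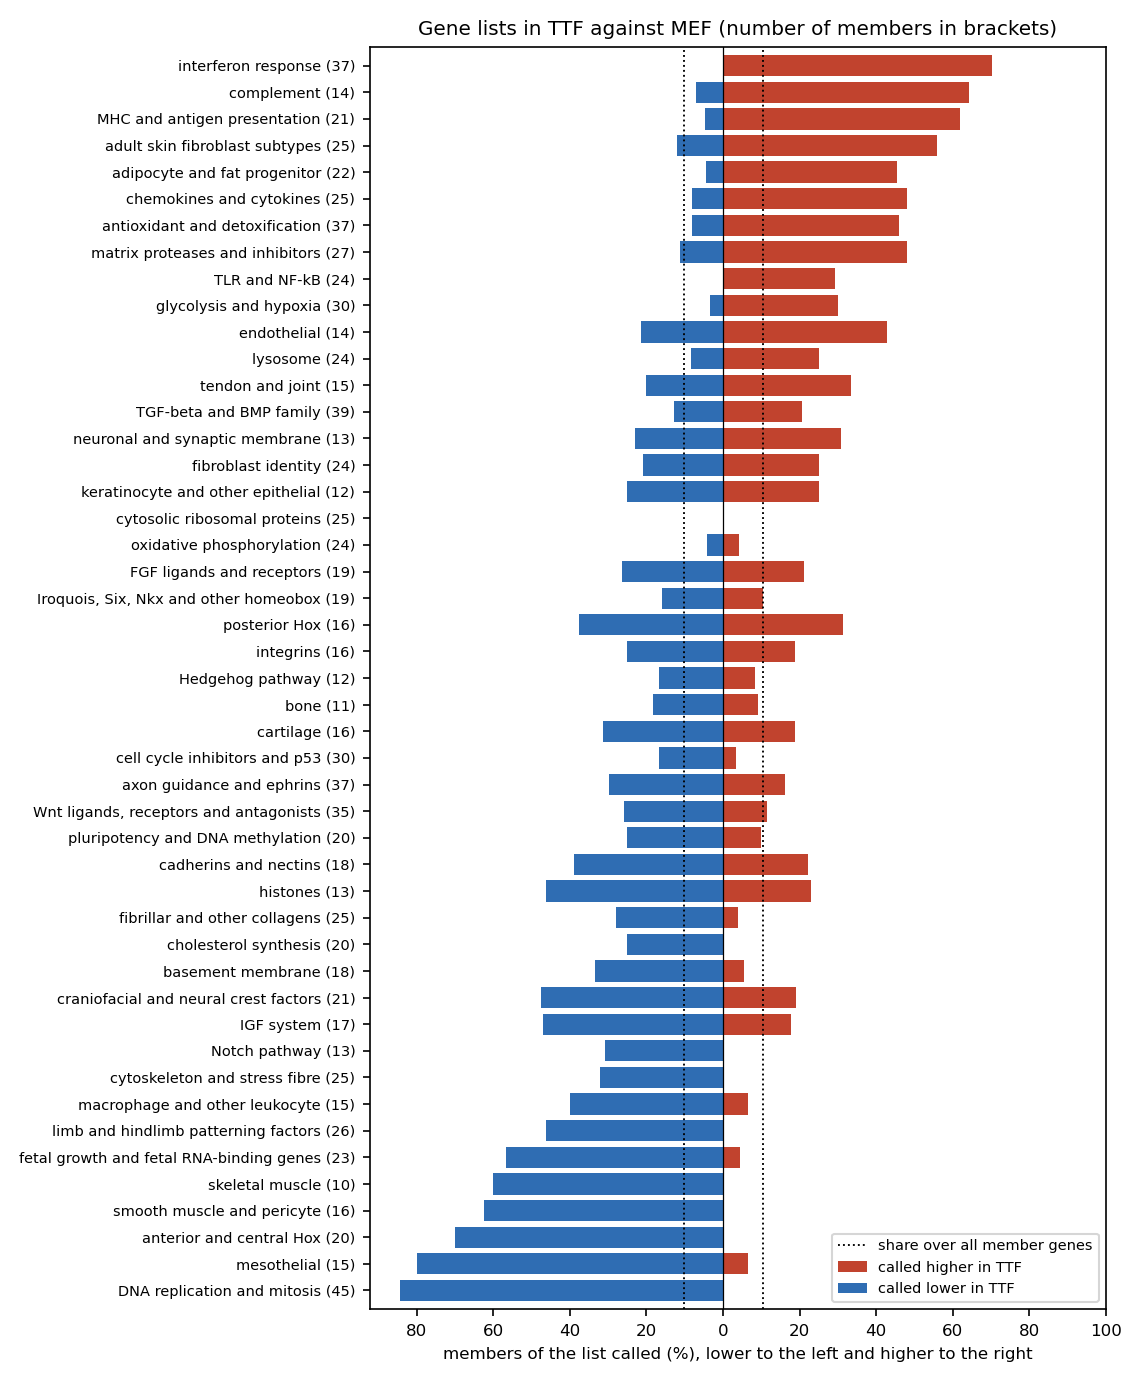
Share of the members of each gene list with at least 10 members (y axis, number of members in brackets) that was called higher (red, to the right) or lower (blue, to the left) in TTF, in percent (x axis). The dotted lines mark the shares over all 14357 genes, 10.4% higher and 10.1% lower; interferon response genes have the largest red bar and replication and mitosis genes the largest blue bar.

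Genes of DNA replication and mitosis were lower in TTF. E2F factors switch these genes on as cells enter the cycle, and B-Myb, NF-Y and FOXM1 do so towards mitosis. Of 45 members 0 were called higher and 38 lower, with a median of -1.76, and by the test alone 1 was higher and 43 lower. The higher one was E2f1, itself an E2F factor, at 13.11 and 12.93 in TTF and 12.60 and 12.50 in MEF. The other E2F factors of the list, E2f2 and E2f8, were lower in TTF. These 3 genes were named after their values were seen. Mki67, a marker of cycling cells, read 12.00 and 11.99 in TTF and 14.60 on both MEF arrays (-2.60 ± 0.05, 6.08-fold lower, adjusted p = 1.05e-10). Mybl2, which encodes B-Myb, differed by -3.07, the mitotic kinase Plk1 by -2.72, cyclin A2 (Ccna2) by -2.59 and Cdc20, which activates the anaphase ubiquitin ligase, by -2.53. Cdkn2a, the locus of the cell cycle inhibitors p16 and p19Arf, read 17.18 and 17.14 in TTF and 14.73 and 14.95 in MEF (2.32 ± 0.08, adjusted p = 3.73e-09). It was the only gene called higher of 30 inhibitors and p53 targets, of which 5 were lower, among them Pmaip1 (Noxa, a death effector) at -2.90. Both populations were labelled with 3 passages, and the labels give no age of the donors. The part of time in culture or donor age in these differences was not tested.
The E2F site, searched as TTTNNCGC on both strands, lay in 5.27% of all 27025 promoters and in 8.07% over member genes. The share was 9.65% for genes called lower and 4.61% for genes called higher. Of the 38 promoters matched to genes of the replication and mitosis list, whether or not they passed the filter, 10 held it (26.3%). The CCAAT box bound by NF-Y lay in 37.9% of all promoters and in 29 of those 38 (76.3%). Mcm3 and Mcm5, subunits of the replicative helicase chosen after their values were seen, differed by -2.37 and -2.29. Their promoters are chr1:20820263-20820562 (minus strand) and chr8:75109259-75109558 (plus strand), with E2F matches in capitals; those of Mcm3 lie within the 50 bases after the start, and those of Mcm5 overlap on opposite strands:
Mcm3: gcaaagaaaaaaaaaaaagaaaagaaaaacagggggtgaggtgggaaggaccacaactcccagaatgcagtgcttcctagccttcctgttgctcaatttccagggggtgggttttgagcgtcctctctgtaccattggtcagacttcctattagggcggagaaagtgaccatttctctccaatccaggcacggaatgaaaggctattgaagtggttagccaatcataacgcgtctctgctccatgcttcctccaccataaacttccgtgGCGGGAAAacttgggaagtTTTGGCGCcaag
Mcm5: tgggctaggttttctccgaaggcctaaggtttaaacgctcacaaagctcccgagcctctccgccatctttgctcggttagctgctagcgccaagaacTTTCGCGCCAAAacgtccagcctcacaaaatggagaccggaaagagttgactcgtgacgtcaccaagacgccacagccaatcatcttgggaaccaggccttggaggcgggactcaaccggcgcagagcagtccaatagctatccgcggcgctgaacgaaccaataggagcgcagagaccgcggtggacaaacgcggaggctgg

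A list of histones, core, linker and variant ones together, had 3 of 13 members higher and 6 lower. The linker histone H1f5 differed by -3.11, and H2bc4 was higher by 2.23. The maintenance methylation factor Uhrf1 differed by -2.35 and the methyltransferase Dnmt3a by -1.30, within a list of pluripotency and DNA methylation genes that had 2 of 20 higher and 5 lower. Klf4 and Klf2 were its higher members, by 1.99 and 1.65.

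Housekeeping groups moved little. Of 25 cytosolic ribosomal proteins 0 were called in either direction, with a median of -0.21. Limma's test alone passed 13 as lower, beside 39.2% over all genes. Of 24 oxidative phosphorylation genes 1 was called higher and 1 lower. The higher gene was Nnt at 1.41, with features from 0.14 to 1.41, and the lower gene was cytochrome c (Cycs) at -1.02; averaging features left 0 in either direction, and 2 were lower without the second TTF array.
Antioxidant and detoxification genes were an exception, with 17 of 37 higher and 3 lower (median 0.74). Extracellular superoxide dismutase (Sod3) read 15.71 and 15.57 in TTF and 12.41 and 12.17 in MEF (3.35 ± 0.11, 10.2-fold, adjusted p = 4.50e-09), and plasma glutathione peroxidase (Gpx3) was higher by 2.64. Glycolysis and hypoxia genes had 9 of 30 higher and 1 lower (median 0.41), with adrenomedullin (Adm) at 2.80 and the carbonic anhydrase Car9 at 2.61. Lysosomal genes had 6 of 24 higher and 2 lower; cathepsin K (Ctsk), which degrades collagen, was higher by 2.79 and cathepsin C (Ctsc) lower by -4.84. Cholesterol synthesis genes had 0 of 20 higher and 5 lower (2 and 14 by the test alone), Cyp51 by -1.54 the most.

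The contractile genes that were called were lower, while adhesion genes went both ways. Smooth muscle and pericyte genes had 0 of 16 called higher and 10 lower (1 and 13 by the test alone, median -1.28), and their summed signal was 19.20 and 19.25 in TTF and 20.42 and 20.47 in MEF on the log2 scale. Actg2, enteric smooth muscle actin, read 13.59 and 13.45 in TTF and 16.97 and 16.99 in MEF (-3.46 ± 0.06, 11.0-fold lower, adjusted p = 6.12e-11). Skeletal muscle markers had 0 of 10 higher and 6 lower (1 and 7 by the test alone), with desmin (Des) at -3.25, while the myogenic factors Myod1 and Myog did not pass the filter. Of 25 genes of the cytoskeleton and stress fibres 0 were called higher and 8 lower (1 and 19 by the test alone), Ankrd1, a target of mechanical signals, by -2.68. Integrins had 3 of 16 higher and 4 lower, with the nephronectin receptor chain Itga8 at -4.30 and the collagen receptor Itga11 at -3.49. Cadherins and nectins had 4 of 18 higher and 7 lower, from Cdh13 at 3.61 to Cdh10 at -4.15. Axon guidance genes had 6 of 37 higher and 11 lower.

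Markers of other cell types differed in both directions. Mesothelial genes, which mark the lining of body cavities, had 1 of 15 members called higher and 12 lower, with a median of -3.03. Their summed log2 signal was 14.42 and 14.47 in TTF and 15.32 and 15.35 in MEF. On the MEF arrays all 15 were above the median and on each TTF array 7. Upk1b read 5.90 and 6.16 in TTF and 10.16 and 10.10 in MEF (-4.10 ± 0.08, adjusted p = 1.69e-10), and the simple epithelial keratins Krt18 and Krt8 differed by -4.77 and -3.95, while Krt19 was higher by 2.30. The part of mesothelial cells in other differences was not tested.
Endothelial genes had 6 of 14 higher and 3 lower, with Tek, the angiopoietin receptor, at 3.40 and Flt1, a VEGF receptor, at -1.88; their summed signal was 14.30 and 14.35 in TTF and 14.95 and 15.02 in MEF. Keratinocyte and other epithelial genes had 3 of 12 higher and 3 lower, and Epcam and Cdh1 did not pass the filter. Neural and glial genes had 2 of 9 higher and 4 lower, with S100b, which cartilage and fat cells also express, at 4.09 and the intermediate filament Nes at -3.09. Of 5 pigment cell members, Mitf at 3.17 and Mlana at 1.42 were higher, and Dct and Tyrp1 did not pass the filter. Of the erythroid list 1 gene passed the filter and was not called. The part of these cell types was not tested.

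Of the 5 factors later used for induction, Wt1 and Gata4 were called lower in TTF. Wt1, a zinc finger factor of mesothelium, kidney and gonad, read 6.77 and 6.85 in TTF, both dim, and 11.72 and 11.83 in MEF (-4.96 ± 0.07, adjusted p = 1.72e-11). Gata4, a zinc finger factor of heart and gonad, read 7.16 and 7.22 in TTF and 9.50 and 9.36 in MEF (-2.24 ± 0.14, adjusted p = 3.01e-07). The steroidogenic factor Nr5a1 differed by -0.91, Sox9 by 0.43, and Dmrt1 by 0.11 ± 0.08 (adjusted p = 0.214). Nr5a1 (adjusted p = 5.46e-06) and Sox9 (adjusted p = 0.00034) passed the test but not the size limit, and Dmrt1 did not pass the test. Wt1 lies on the mesothelial list as well.

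The donors could not be matched for sex or strain from the labels. Eif2s3y, a gene of the Y chromosome, read 6.11 and 5.84 in TTF, both dim, and 11.12 and 11.07 in MEF (-5.12 ± 0.09, adjusted p = 9.21e-11). The Y genes Uty, Kdm5d, Usp9y and Zfy1 did not pass the filter, which counts the TTF and MEF arrays together. Uty was dim on both TTF arrays and on the second MEF array, and lay above the median on the first MEF array. Both of its MEF values were above both of its TTF values, the same direction as Eif2s3y. Kdm5d, Usp9y and Zfy1 were dim on all TTF and MEF arrays. Xist, which silences the X chromosome in females, read 9.85 and 9.83 in TTF and 9.25 and 9.27 in MEF (adjusted p = 0.119). The X copy Eif2s3x, chosen after these values were seen, differed by -1.08 on its brightest feature, with features from -1.08 to 0.40. The X copies Kdm6a, Kdm5c, Ddx3x and Zfx differed by -0.15, -0.12, -0.47 and -0.37 and were not called. On the X chromosome 6.41% of 499 genes were called higher and 14.8% lower. Of 6 members known to vary between inbred strains, Ifi202b, Nnt and Mx1 (1.01) were called higher. Sex and strain of the donors therefore cannot be told apart from the origin of the cells.

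The cells induced from the 2 populations were compared in the same way. Their arrays were part of the fit used above and so share its estimate of the spread. The labels do not say whether they came from the same donors as the fibroblasts, and Eif2s3y, bright in MEF, was dim in MEF-ieSC at 6.00 and in TTF-ieSC at 5.15 and 5.08. TTF-ieSC and MEF-ieSC differed by a root mean square of 0.423 over the 14357 genes, against 1.038 between TTF and MEF. Between them 205 genes (1.43%) were called higher and 141 (0.982%) lower in TTF-ieSC. Of the 1492 genes higher in TTF, 64 (4.29%) were also higher in TTF-ieSC and 31 (2.08%) were lower there, and the median difference between the induced cells was 0.04. Of the 1457 genes lower in TTF, 42 (2.88%) were also lower in TTF-ieSC and 51 (3.5%) were higher. The shared calls were 31.2% of those higher and 29.8% of those lower in TTF-ieSC. Over all genes the differences had a Pearson correlation of 0.050 (Spearman 0.065), a description across genes in which each pair of groups has its own arrays. MEF-ieSC rests on 1 array, assumed to vary like the other groups, and a low feature on it alone gives a large difference: Aldh9a1, chosen after its values were seen, read 14.96 and 15.25 in TTF-ieSC and 1.99 in MEF-ieSC.

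Most of the largest differences were not seen between the induced cells. Of the 20 largest in favour of TTF, 15 differed by less than 1 between TTF-ieSC and MEF-ieSC, 3 were called in the same direction and 1 in the opposite one; of the 20 largest in favour of MEF, the numbers were 18, 1 and 1. For 10 and 8 of them, both induced groups were dim. Igf2, bright in MEF and dim in TTF, averaged 6.66 in TTF-ieSC and 6.76 in MEF-ieSC. Hoxb13, bright in TTF and near the array median in MEF, averaged 4.70 and 5.38. Others were bright in both: Mest averaged 17.95 and 18.03, and Wt1, whose transgene can add to the signal, 16.48 and 16.58. Pitx1, dim in TTF, averaged 12.59 in TTF-ieSC and 11.61 in MEF-ieSC. Cygb, higher in TTF by 6.55, averaged 13.09 and 13.38.
Ndufa4l2, a hypoxia-induced mitochondrial protein, differed in the same direction in both comparisons. It read 17.14 and 16.78 in TTF and 11.03 and 11.08 in MEF, and 11.21 and 11.27 in TTF-ieSC against 8.45 in MEF-ieSC, a difference of 5.91 ± 0.13 between the fibroblasts and 2.79 ± 0.16 between the induced cells. The sterol hydroxylase Cyp39a1 differed by 1.48 and 2.24, and on the lower side Gucy1b1, a subunit of the nitric oxide receptor, by -1.56 and -2.24, Bex1 by -1.51 and -1.91 and the oxidase subunit Ncf4 by -1.53 and -1.67. Dkk2 and Gdf10 were also higher in TTF-ieSC, by 2.14 and 2.53, but were dim on all 3 induced arrays.

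**Figure D5:**
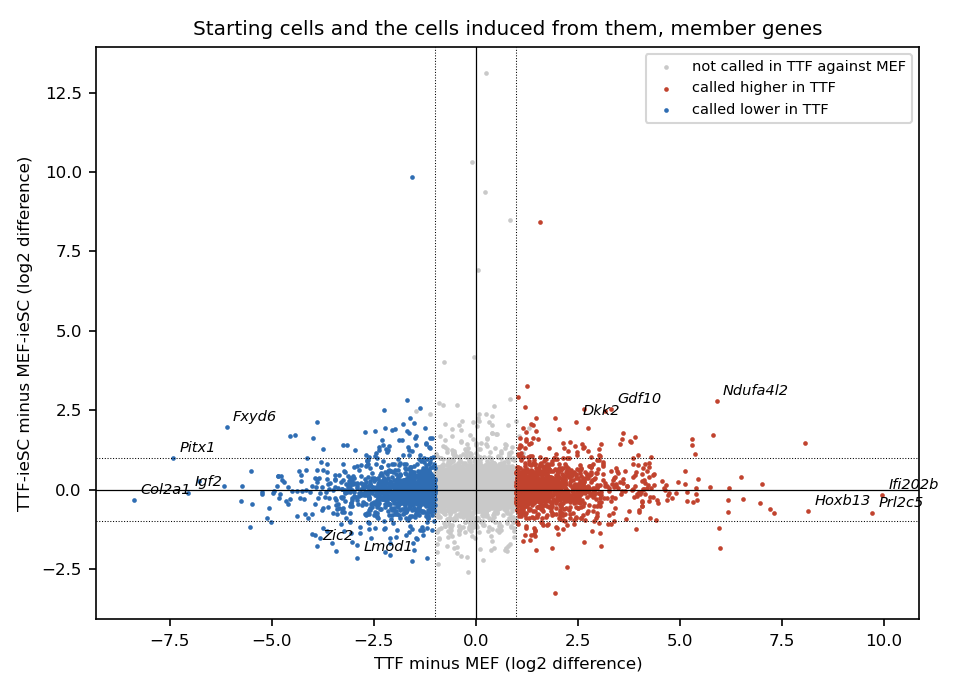
Log2 difference TTF minus MEF (x axis) and TTF-ieSC minus MEF-ieSC (y axis) for the 14357 genes. Red points were called higher and blue points lower in TTF, and dotted lines mark a difference of 1; most coloured points lie between the horizontal dotted lines, and the points above 5 on the y axis are features that were low on the MEF-ieSC array alone.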

How the data were processed

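The 13 arrays of the series, 7 groups in all, were taken from 1 table of log2 signals that the authors deposited; limma is listed in the submitters' processing notes without a version or a role. The feature extraction and background steps are not stated there. The 13 columns hold identical distributions, so no depth exists, and precision is limited by how few arrays there are. Symbols came from the platform annotation, updated through RefSeq on GRCm38.p6 (29050 by accession, 2061 by symbol, 349 by an older name, 5 kept); 31511 had no symbol. For each gene the member feature that was brightest on average in the series stood for it; 4199 genes had several. The values of all 13 arrays were fitted together in limma 3.58.1 (R 4.3.3, lmFit then eBayes, 6 residual and 3.37 prior degrees of freedom), a procedure also tested on simulated data. Tests were two-sided, with Benjamini-Hochberg adjustment across the 14357 genes. Errors beside differences are standard errors of this fit.

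Named were the 20 largest called differences each way whose arrays did not overlap and whose brighter group lay above the 75th percentile, up to 5 called members of each of 55 gene lists, the induction factors, the fibroblast, Y and strain lists and Col1a1, and the 10 genes each way that also differed most between induced cells. The genes compared and the lists were chosen with earlier results of these data known. Lists held 1204 genes, of which 1139 were on the array and 1017 were members. Alternatives changed the filter, the features, the scaling, the variance model, the minimum difference and the arrays. For promoters, the first entry of a gene was used.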

Additional observations from a re-analysis of the deposited data

How the results depend on the processing

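The counts of 1492 genes higher and 1457 lower in TTF moved by less than 1.5 times under repeated quantile, cyclic loess or 75th percentile scaling, array weights, another variance model, the mean of features, the 4 fibroblast arrays alone, no filter, or a filter on all 13 arrays. Requiring the 75th percentile on 2 of the 4 arrays gave 961 higher and 867 lower, of which 42 and 14 were shared with the induced cells. Requiring the median on all 4 arrays left 19 shared lower genes. Testing every feature gave 2250 higher features and 64 shared lower ones. Limma's treat at a log2 difference of 1 left 12 and 5 shared genes, and a minimum difference of 2 gave 468 and 444 genes, with 5 and 2 shared. These settings test fewer or more features or ask for a larger difference by construction. Leaving out 1 of the 4 arrays gave 1462 to 1482 higher, 1438 to 1473 lower, 9629 to 9799 by the test alone, and 62 to 66 and 37 to 41 shared genes. Of 284 named genes, 0 changed sign while passing the threshold in the main or the changed setting. Sign changes in genes that passed in neither were not counted, and the stricter filters did not hold every named gene. Limma's treat left 34 short of the threshold. With the 4 fibroblast arrays alone, Thy1 (adjusted p = 0.00521), Twist1 (0.0324) and Xist (0.0002) passed and Vim (0.0645) and Entpd4 (0.0506) did not. Osr1 lost its call without any 1 of the 4 arrays (adjusted p 0.081 to 0.128). Cyclic loess moved the median difference by 0.03. No paired analysis was possible because the labels carry no replicate numbers that link TTF and MEF arrays. Dim values and the lack of detection flags limit differences against genes under the median.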

Other observations

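Features without a gene symbol were read in the same way. Of these, 10895 lay above the median on at least 2 of the 4 arrays, and 680 were called higher and 619 lower in TTF (11.9%), against 2250 and 2147 (20.2%) of the 21777 features with a symbol. Member genes were called at like rates on most chromosomes: the share called higher ran from 6.41% on the X chromosome to 12.9% on chromosome 3, and the share called lower from 6.82% on chromosome 19 to 14.8% on the X chromosome.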
